A study of Mus musculus with 16 samples.

Results

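The genes described here encode the constant regions of the mouse antibody heavy chains, together with Jchain, which encodes the small protein that joins IgM and IgA into polymers. The members were the 9 genes whose symbol in the deposited table was Ighm, Ighd, Ighg3, Ighg1, Ighg2b, Ighg2c, Ighe, Igha or Jchain, and all 9 were found among its 27928 genes. RNA was sequenced from 8 libraries, 2 in each of 4 groups of B cells sorted from the spleens of C57BL/6 mice. Follicular (FO) B cells were sorted as CD21lo CD23hi and marginal zone (MZ) B cells as CD21hi CD23lo. The WT groups carried unmodified alleles. The cKO groups carried Gtf2i fl/fl alleles and a Cre driver active in B cells, which deletes floxed Gtf2i, the gene for the transcription factor TFII-I, so that only the cKO groups carried Cre and the floxed alleles. The labels do not say whether the 2 libraries of a group came from separate mice, so the tests measure the spread between libraries, which may be technical.

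A naive B cell joins a V, a D and a J gene segment into one variable exon and splices it to the first constant exon of Ighm or, further along the same primary transcript, of Ighd. IgM and IgD of the same specificity are therefore made in one cell by alternative processing of RNA. Class switch recombination later deletes Ighm and Ighd and brings an Ighg, Ighe or Igha gene next to the variable exon, and that DNA event is preceded by germline transcripts that run through the unswitched constant gene. MZ B cells are known for high surface IgM and low surface IgD, and FO B cells for high surface IgD. Reads counted over constant exons do not separate membrane from secreted forms, or germline transcripts from those of switched cells. In bulk samples such as these, fewer cells of a type and less RNA per cell cannot be told apart.

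The 8 heavy chain genes lie on the minus strand of chromosome 12 (GRCm38, GENCODE M21) in the order of transcription Ighm (113418558 to 113422730), Ighd (113406604 to 113416324), Ighg3 (113356224 to 113361232), Ighg1 (113325240 to 113330523), Ighg2b (113302965 to 113307933), Ighg2c (113285325 to 113288932), Ighe (113269260 to 113273248) and Igha (113254830 to 113260236). Jchain lies on the minus strand of chromosome 5 (88519809 to 88527891). The variable exon is spliced to the first constant exon of Ighm or of Ighd. The acceptor sites are shown because spliced Ighm and Ighd transcripts differ in the exon joined there. The Ighm to Ighd ratio below was taken from reads counted over each whole gene, not from reads across these sites. Each line gives 20 bases of the intron and 60 bases of exon 1, read from GRCm38 at chr12:113422671-113422750 for Ighm and chr12:113416265-113416344 for Ighd, minus strand, 5′ to 3′, with the AG that ends the intron in capitals.
Ighm: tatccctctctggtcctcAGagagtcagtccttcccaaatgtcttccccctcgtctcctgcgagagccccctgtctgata
Ighd: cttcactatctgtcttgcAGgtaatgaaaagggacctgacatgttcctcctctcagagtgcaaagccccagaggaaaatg

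The 4 Ighg genes resemble each other in sequence, which bears on how 50-base reads could be assigned. Exon 1 is 291 bases long in each, and without gaps it was identical at 79.0% of positions between Ighg3 and Ighg1, at 78.7% between Ighg3 and Ighg2b, at 78.4% between Ighg3 and Ighg2c, and at 87.6% to 88.3% between the other pairs. The first 60 bases are shown from chr12:113361173-113361232 (Ighg3), chr12:113330464-113330523 (Ighg1), chr12:113307874-113307933 (Ighg2b) and chr12:113288873-113288932 (Ighg2c) of GRCm38, minus strand. Capitals mark the 22 positions at which the 4 genes are not all alike, and the lines are shown because such positions are what lets a read be assigned to one gene.
Ighg3: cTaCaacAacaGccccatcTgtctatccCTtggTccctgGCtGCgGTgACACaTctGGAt
Ighg1: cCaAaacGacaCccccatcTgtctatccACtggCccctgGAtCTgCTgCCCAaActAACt
Ighg2b: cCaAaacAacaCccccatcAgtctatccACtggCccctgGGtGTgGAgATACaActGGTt
Ighg2c: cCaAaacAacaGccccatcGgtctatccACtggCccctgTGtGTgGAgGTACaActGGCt

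Over the spliced transcripts, 1.58% of the 50-base windows of Ighg3 also occurred in another member, against 0.393% for Ighg1, 4.15% for Ighg2b and 5.49% for Ighg2c. Ighm, Ighd, Ighe, Igha and Jchain shared none of their windows. The hinge exon, which encodes the flexible link between the arms and the stem of the antibody, is exon 2 of each Ighg gene. Its length differs, from 39 bases in Ighg1 to 66 in Ighg2b. The hinge exons of Ighg3 (chr12:113360529-113360576) and Ighg2b (chr12:113307261-113307326), the IgG genes on which the results below turn, read as follows on the minus strand.
Ighg3: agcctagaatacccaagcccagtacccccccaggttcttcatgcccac
Ighg2b: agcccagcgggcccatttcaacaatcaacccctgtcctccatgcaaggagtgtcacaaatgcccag

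The libraries held 21546552 to 25083552 reads on genes, and the 8 heavy chain genes took 0.704% to 1.12% of them. Each deposited value is a normalized count, a number of reads divided by the size factor of its library, and 1 read was worth 0.906 to 1.12 normalized counts. The 5 MZ B cell markers (Cr2, Cd1d1, Cd9, S1pr3 and Dtx1) were all called higher in MZ in both genotypes, and 3 of the 4 FO markers higher in FO. Gtf2i was lower in each cKO library (1523 to 1889) than in each WT library (1992 to 2864), though neither genotype comparison passed the test over all genes. Ddx3y, on the Y chromosome, was at most 6.34 in WT and at least 2682 in cKO. Genotype therefore cannot be told apart from Y-linked transcripts or the sex of the mice, in any comparison of cKO with WT. Xist was at 25930 to 47002 in WT. Among the cKO libraries it stood at 14748 in FO replicate 1, which thus held both transcripts, and between 21.7 and 89.7 elsewhere.

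Both WT replicate 1 libraries stood apart at the heavy chain locus, and results that rest on them are given with and without them. The 11 D genes of the table had 2 reads in WT FO replicate 1 and 0 reads in WT MZ replicate 1, against 29 to 56 in the other 6 libraries. A count of 0 is compatible with up to 3 reads, counting error alone. The 4 J genes had 471 and 331 reads in these libraries and 606 to 976 in the others. Of 142 V genes, 105 and 101 had a read, against 124 to 132.

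Ighm, the IgM heavy chain gene, was the most abundant member per kilobase of exon in every library. Normalized counts in the FO libraries were 122725 and 174072 (WT) and 173897 and 177242 (cKO). The MZ libraries held 142822 and 225292 (WT) and 190997 and 185741 (cKO). The WT replicates lay farther apart than any pair of group means, and the WT groups overlapped. In cKO both MZ libraries were above both FO libraries, by a small margin. The log2 difference, MZ minus FO, was 0.30 in WT (95% interval -0.27 to 0.86, limma adjusted p = 0.477) and 0.10 in cKO (-0.47 to 0.67, limma adjusted p = 0.81).

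Ighd, the IgD heavy chain gene, was lower in MZ B cells of both genotypes than in their FO B cells. Normalized counts in the FO libraries were 39224 and 75630 (WT) and 56715 and 70518 (cKO). The MZ libraries held 9742 and 22649 (WT) and 18171 and 18508 (cKO). All 4 MZ libraries were below all 4 FO libraries. Ighd fell by 1.87 on the log2 scale in WT (standard error 0.411, limma adjusted p = 0.0196), a 3.67-fold difference, and by 1.79 in cKO (standard error 0.411, limma adjusted p = 0.0211), a 3.45-fold difference. Among all 14761 genes tested, 4.62% were called higher in FO in WT and 5.54% in cKO. Without both WT replicate 1 libraries the WT difference was -1.74, with 1 library in each WT arm. With the replicate block the call in WT was kept (limma adjusted p = 0.00306). The call in WT was lost in a fit of the 4 WT libraries alone (limma adjusted p = 0.0987), without WT FO replicate 2 (log2 difference -1.40, limma adjusted p = 0.0789) and without WT MZ replicate 1 (-1.27, limma adjusted p = 0.0612). The call in cKO was lost with any of the 4 cKO libraries left out (log2 difference -1.94 to -1.63, limma adjusted p = 0.0832 to 0.115).

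**Figure D1:**
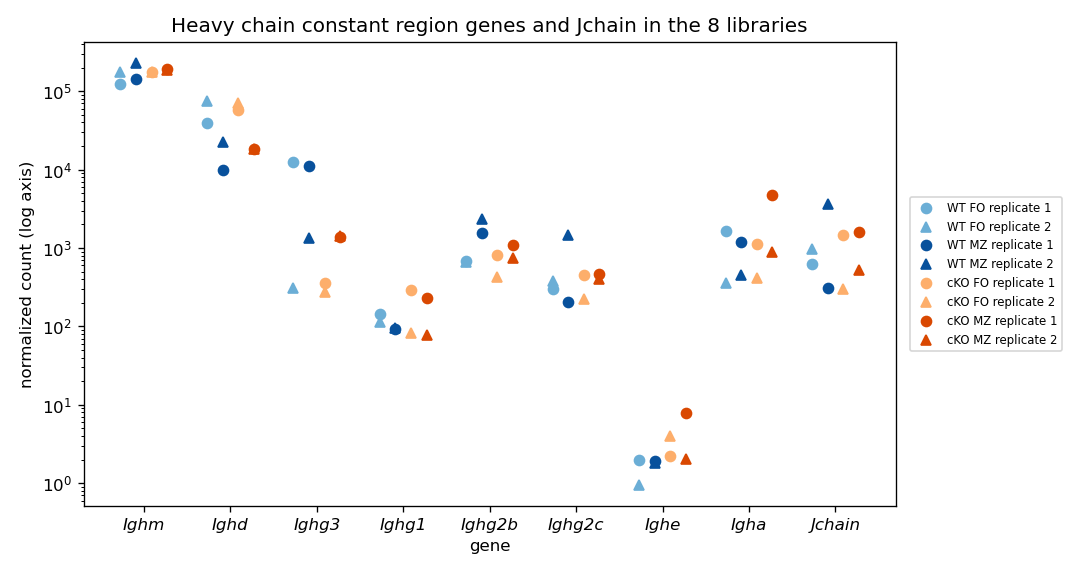
Normalized counts (log axis) of the 9 genes in each of the 8 libraries, with circles for replicate 1 and triangles for replicate 2 of each group. Ighm lay above all other members in every library, Ighd was lower in the 4 MZ libraries than in the 4 FO libraries, and Ighg3 was highest in both WT replicate 1 libraries.

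The Ighm to Ighd ratio was taken within each library, so that library size does not enter it. In FO B cells it was 3.13 and 2.30 in WT and 3.07 and 2.51 in cKO. In MZ B cells it was 14.7 and 9.95 in WT and 10.5 and 10.0 in cKO. The highest FO library lay far below the lowest MZ library, while the genotypes overlapped in FO and in MZ B cells. Per exonic base (1886 bases for Ighm and 1900 for Ighd) the ratios ranged from 2.32 to 3.15 in FO and from 10.0 to 14.8 in MZ B cells.

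On the log2 scale the ratio averaged 3.48 ± 0.267 in MZ and 1.45 ± 0.217 in FO B cells (SD, n = 4 each), a difference of 2.03, or 4.08-fold. The exact two-sided permutation test over its 70 arrangements gave p = 0.0286, the smallest it allows. Adjusted over the 2 tests of the ratio this was 0.0571 by the exact permutation test, which did not pass 0.05 and which is the smallest value this design allows. The difference was present in each of the 4 pairs of same-numbered FO and MZ libraries, at 1.78 to 2.23 on the log2 scale. Without both WT replicate 1 libraries it was 1.96. Between genotypes the ratio differed by -0.092 on the log2 scale, cKO minus WT (2.42 ± 1.10 against 2.51 ± 1.29, SD, n = 4 each, exact permutation p = 0.857). Each side pools FO and MZ libraries, so these SDs and this p include the gap between the subsets. With arrangements kept within subset the exact permutation p was 0.722. The genotype difference changed sign, to 0.16, without both WT replicate 1 libraries.

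Expressed as a share, Ighd made up 24.2% of the Ighm and Ighd reads in WT FO replicate 1 (95% exact binomial interval 24.0% to 24.4%, counting error only) and 30.3% in replicate 2. The cKO FO libraries held 24.6% and 28.5%. In MZ B cells the share was 6.39% (6.27% to 6.51%) and 9.13% in WT and 8.69% and 9.06% in cKO. The intervals are narrow because each library had 10115 or more Ighd reads, and the replicates differed by more than counting error.

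**Figure D2:**
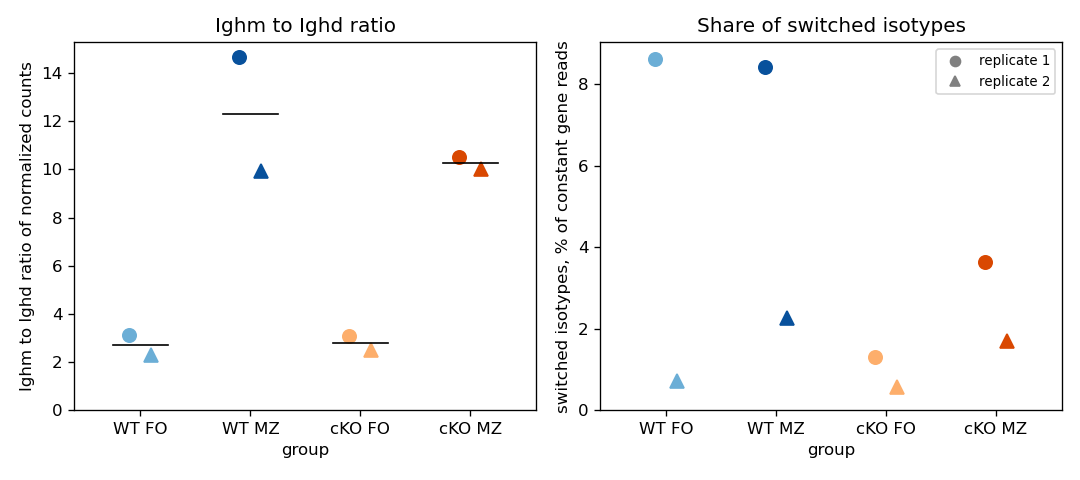
Left, the Ighm to Ighd ratio of normalized counts in each library, with a line at the mean of each group. Right, the percent of reads on the 8 heavy chain constant genes that fell on the 6 genes other than Ighm and Ighd. The ratio was 2.30 to 3.13 in FO and 9.95 to 14.7 in MZ libraries. The share of these 6 genes, which may include germline transcripts, was highest in the WT replicate 1 libraries.

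Of the 4 listed genes that act in IgM and IgD processing, Zfp318 differed between the subsets in the direction of Ighd. Zfp318 encodes a nuclear protein required for transcripts to continue from Ighm into Ighd. The FO libraries held 16963 and 15965 (WT) and 16996 and 14907 (cKO) normalized counts of it, and the MZ libraries 4610 and 5409 (WT) and 3945 and 4662 (cKO). The log2 difference, MZ minus FO, was -1.72 for WT (limma adjusted p = 0.000206) and -1.89 for cKO (limma adjusted p = 0.000133). Within each subset the library with the most Zfp318 was not always that with the most Ighd. In FO B cells Ighd was lowest in WT replicate 1, where Zfp318 was the second highest, at 16963. Ell2, Hnrnpll and Cstf2, which act on the processing of RNA ends and exons, were not called, and Hnrnpll was at 2.01 to 12.4 normalized counts in FO and 6.74 to 30.8 in MZ B cells.

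Ighg3 encodes IgG3, the IgG isotype known for responses to polysaccharides, and it varied most among libraries. Among the WT libraries it stood at 12499 and 309 normalized counts in FO and at 10991 and 1350 in MZ. Among the cKO libraries it stood at 357 and 274 in FO and at 1391 and 1410 in MZ. The 2 high values were both in WT replicate 1 libraries, in which Ighg3 equalled 10.2% and 7.70% of Ighm, against 0.154% to 0.759% in the other 6. Both high libraries were those with 2 and 0 D gene reads, and the part of that difference in the result was not tested.

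The log2 difference of Ighg3, MZ minus FO, was 0.97 in WT (95% interval -2.68 to 4.62, limma adjusted p = 0.735) and 2.16 in cKO (-1.49 to 5.81, limma adjusted p = 0.379). The spread of the WT libraries enters the cKO comparison through the shared fit. In cKO both MZ libraries were above both FO libraries, and the replicates differed little. A fit of the 4 cKO libraries alone gave the same difference of 2.16 with limma adjusted p = 0.000159. Without both WT replicate 1 libraries, Ighg3 was called higher in MZ for WT (log2 difference 2.12, limma adjusted p = 0.00243) and for cKO (2.16, limma adjusted p = 0.000149). The WT value then compares 1 FO library with 1 MZ library and takes its spread from the cKO replicates, so its p assumes that they vary alike. That choice of libraries was made after Ighg3 had been seen. Between same-numbered libraries MZ exceeded FO 4.37-fold in WT replicate 2, 3.90-fold in cKO replicate 1 and 5.15-fold in cKO replicate 2, while in WT replicate 1 the ratio was 0.879.

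**Figure D3:**
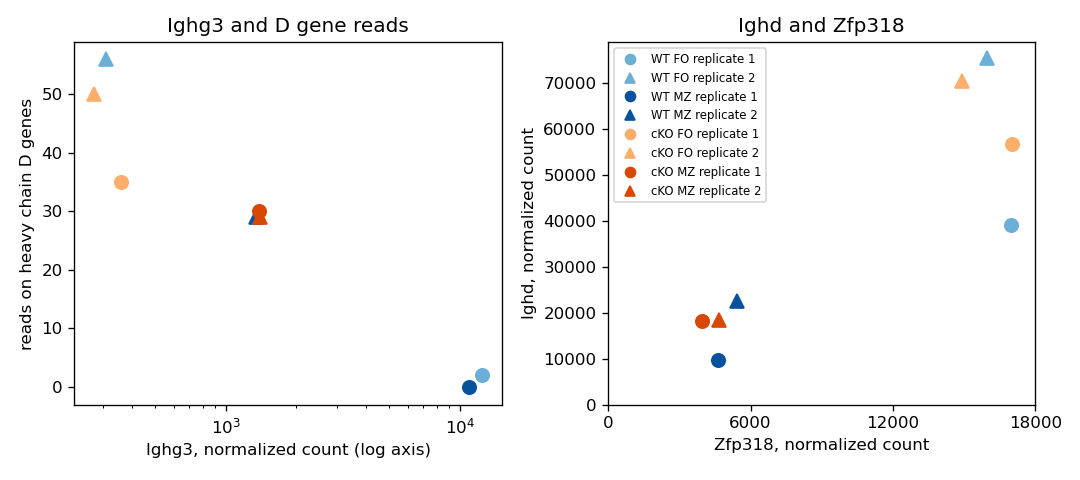
Left, reads on the 11 heavy chain D genes against the normalized count of Ighg3 (log axis) in each library. Right, Ighd against Zfp318, both as normalized counts. The WT replicate 1 libraries combined the highest Ighg3 with 2 and 0 D gene reads, and the 4 MZ libraries were low in both Zfp318 and Ighd.

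Ighg2b, the IgG2b heavy chain gene, was higher in WT MZ than in WT FO B cells. Normalized counts among WT libraries were 680 and 670 in FO and 1547 and 2368 in MZ. Among cKO libraries they were 826 and 428 in FO and 1085 and 751 in MZ. The WT groups were well apart and the cKO groups overlapped. The log2 difference, MZ minus FO, was 1.503 for WT (standard error 0.33, limma adjusted p = 0.0197), which is 2.83-fold, and 0.60 for cKO (limma adjusted p = 0.246). Higher in MZ were 7.41% of all genes tested in WT and 8.18% in cKO. The WT call was lost without WT FO replicate 1 (limma adjusted p = 0.0741), WT FO replicate 2 (limma adjusted p = 0.0642) or WT MZ replicate 2 (limma adjusted p = 0.0853), at differences of 1.20 to 1.51, and without both WT replicate 1 libraries (1.82, limma adjusted p = 0.0517). The WT and cKO differences were not shown to differ from each other (interaction -0.90, limma adjusted p = 1).

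Ighg1 and Ighe were low, while per kilobase of exon the group means of Ighg2c were close to those of Ighg2b. That closeness depends on the annotated exons, 1326 bases for Ighg2c against 2678 for Ighg2b. As normalized counts Ighg2c was below Ighg2b in every library. Normalized counts of Ighg1 were 145 and 115 (WT FO), 93.4 and 95.1 (WT MZ), 290 and 82.5 (cKO FO) and 233 and 78.4 (cKO MZ). Replicate 1 of both cKO groups lay above every other library. The log2 difference, MZ minus FO, was -0.45 for WT (limma adjusted p = 0.695) and -0.19 for cKO (limma adjusted p = 0.865). Ighg2c, which C57BL/6 mice carry in place of Ighg2a, was at 297 and 375 (WT FO), 205 and 1451 (WT MZ), 456 and 225 (cKO FO) and 463 and 404 (cKO MZ). Its log2 difference was 0.71 for WT (limma adjusted p = 0.604) and 0.43 for cKO (limma adjusted p = 0.741). The value of 1451 in WT MZ replicate 2 stood alone. Without the other WT MZ library the log2 difference between the WT subsets was 2.12 (limma adjusted p = 0.0165), whereas without WT MZ replicate 2 it was -0.70 (limma adjusted p = 0.312). In both cases the WT MZ arm is 1 library, and the p rests on the spread of the other groups. Ighe had 1 to 8 reads in a library, below the filter of a mean normalized count of 10, and was not tested.

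Igha, which encodes the IgA heavy chain, stood at 1667 and 353 (WT FO), 1195 and 456 (WT MZ), 1129 and 420 (cKO FO) and 4687 and 887 (cKO MZ) normalized counts. Replicate 1 was above replicate 2 in each group. The MZ and FO libraries overlapped in both genotypes, and the log2 difference was -0.055 for WT (limma adjusted p = 0.98) and 1.57 for cKO (limma adjusted p = 0.308). cKO MZ replicate 1, with the most Igha, also carried transcripts of other cells. Its 6 granulocyte markers summed to 1423 normalized counts against 15.2 to 65.4 in the other libraries, and its 6 erythroid markers to 13304 against 25.9 to 1007. Their part in the Igha value was not tested. Without that library the Igha difference in cKO was 0.36 (limma adjusted p = 0.876).

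Jchain stood at 619 and 968 (WT FO), 305 and 3692 (WT MZ), 1473 and 297 (cKO FO) and 1615 and 524 (cKO MZ) normalized counts. The groups overlapped in each comparison. WT MZ replicate 2 was highest, as for Ighg2b and Ighg2c. The log2 difference, MZ minus FO, was 0.46 in WT (95% interval -2.29 to 3.20, limma adjusted p = 0.841) and 0.47 in cKO (-2.27 to 3.22, limma adjusted p = 0.816).

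**Figure D4:**
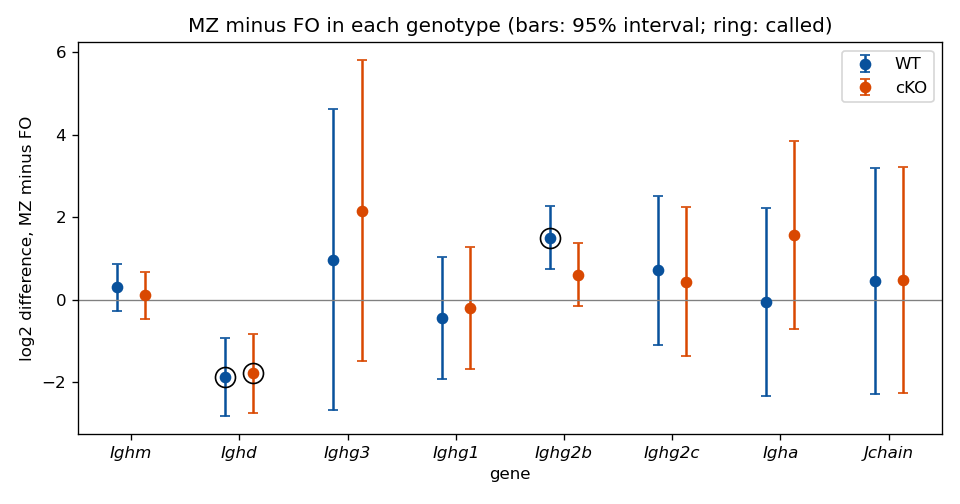
Log2 difference, MZ minus FO, of the 8 members tested in WT and cKO, with 95% intervals from the limma fit, and a ring around each called difference. Ighd was called in both genotypes (-1.87 and -1.79) and Ighg2b in WT (1.503), while the intervals of Ighg3, Igha and Jchain spanned several log2 units.

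Of the 9 members 8 passed the filter, and in WT 1 of the 8 was called higher and 1 lower in MZ, and in cKO 0 higher and 1 lower. Over all genes tested, 7.41% were called higher and 4.62% lower in MZ in WT, and 8.18% and 5.54% in cKO. The median log2 difference of the 8 was 0.38 in WT and 0.45 in cKO, against -0.0048 and -0.0047 over all genes tested. The groups did not overlap for 3 of the 8 in WT (Ighd, Ighg1 and Ighg2b) and 3 of the 8 in cKO (Ighm, Ighd and Ighg3), against 55.3% and 65.0% of all genes tested.

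Per kilobase of exon, the order of the members in WT MZ B cells was Ighm (97591 normalized counts per kilobase, mean of 2), Ighd (8524), Ighg3 (2457), Jchain (794), Ighg2b (731), Ighg2c (624), Igha (310), Ighg1 (36.4) and Ighe (1.18). In cKO MZ B cells it was Ighm (99877), Ighd (9652), Igha (1044), Ighg3 (558), Jchain (425), Ighg2b (343), Ighg2c (327), Ighg1 (60.1) and Ighe (3.17). In WT FO B cells it was Ighm (78684), Ighd (30225), Ighg3 (2549), Igha (378), Jchain (315), Ighg2c (253), Ighg2b (252), Ighg1 (50.1) and Ighe (0.93). In cKO FO B cells it was Ighm (93091), Ighd (33482), Jchain (352), Igha (290), Ighg2c (257), Ighg2b (234), Ighg3 (126), Ighg1 (71.9) and Ighe (1.98). Ighm and Ighd headed the order, and Ighg1 and Ighe ended it, in all 4 groups. The place of Ighg2c depends on its annotated exons, 1326 bases against 2512 to 2678 for the other Ighg genes. The place of Ighg3 in WT rests on replicate 1. Per kilobase it was at 4976 in replicate 1 and 123 in replicate 2 of WT FO, and at 4375 and 538 in WT MZ. In WT FO replicate 2 it was below Jchain, Ighg2c, Ighg2b and Igha. In WT MZ replicate 2 it was below Jchain, Ighg2c and Ighg2b. In each group 4 of the 8 neighbouring pairs did not overlap between libraries, and the rest could not be ordered beyond their spread. Those apart were Ighm and Ighd, Ighd and the gene after it, and Ighg1 and Ighe in each group, plus Ighg2b and Ighg1 (WT FO), Igha and Ighg1 (WT MZ), Ighg2b and Ighg3 (cKO FO) and Ighg2c and Ighg1 (cKO MZ).

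The 6 constant genes other than Ighm and Ighd took 8.63% of the constant gene reads in WT FO replicate 1 (95% exact binomial interval 8.50% to 8.76%) and 0.725% in replicate 2. The other libraries held 8.42% and 2.26% (WT MZ), 1.31% and 0.575% (cKO FO) and 3.63% and 1.70% (cKO MZ). Ighg3 made up 81.8% and 78.3% of these reads in the WT replicate 1 libraries and 11.7% to 39.9% in the others. Leaving Ighg3 out, the 5 other genes summed to 1160 to 2790 normalized counts in FO and 2122 to 6477 in MZ B cells.

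Between cKO and WT none of the 8 members tested was called. In each such comparison genotype and sex cannot be told apart. In MZ B cells the background was 0.0339% of genes called higher and 0% lower in cKO, with 596 genes at an unadjusted p under 0.05, while on recovered reads DESeq2 called 30 higher and 18 lower and edgeR 4 and 0. Ighg2b was the single tested member whose MZ groups did not overlap, 1 of 8 beside 34.5% of all genes tested. The log2 difference, cKO minus WT, was -1.08 (95% interval -1.85 to -0.32, limma adjusted p = 0.998), and over the alternatives the adjusted p ran from 0.0524 (DESeq2) to 1 (limma). Ighd differed by 0.30 (-0.65 to 1.26), Ighm by 0.070 (-0.50 to 0.64) and Ighg3 by -1.46 (-5.11 to 2.19). In FO B cells 0.0542% of genes were called higher and 0.0135% lower in cKO, with 382 at an unadjusted p under 0.05, and the groups of 0 of the 8 tested members were apart, beside 24.0% of all genes. Ighd differed by 0.22 (-0.74 to 1.17), Ighm by 0.26 (-0.30 to 0.83), Ighg2b by -0.18 (-0.95 to 0.58) and Ighg3 by -2.65 (-6.30 to 1.00). Without both WT replicate 1 libraries Ighg3 differed between genotypes by 0.053 in MZ and 0.016 in FO B cells.

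The interaction of genotype and subset was called for 0 members and for 0% of all genes by limma, with 94 genes at an unadjusted p under 0.05 and 0 called by DESeq2 or edgeR. For Ighd the interaction was 0.088 on the log2 scale (95% interval -1.26 to 1.44).

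The partners of the heavy chain were counted from lists. Beside them, 7.41% of all genes tested were called higher and 4.62% lower in MZ in WT, and 8.18% and 5.54% in cKO. Of 7 B cell receptor partners (Cd79a, Cd79b, Igkc and 4 Iglc genes, which encode the signalling pair and the light chains) 0 were called between subsets in either genotype. Igkc, the kappa light chain constant gene, was at 85112 and 89032 normalized counts (WT FO), 66842 and 82127 (WT MZ), 85608 and 92179 (cKO FO) and 67612 and 63382 (cKO MZ). Its log2 difference, MZ minus FO, was -0.23 for WT (limma adjusted p = 0.29) and -0.44 for cKO (limma adjusted p = 0.0554). Of the 6 cofactors of heavy chain transcription, among them Pou2af1 and Pou2f2, 0 were called. Of the 10 listed genes of class switch recombination 9 were tested and 0 called.

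Among the 9 genes of antibody assembly and Fc partners 2 were called higher in MZ in both genotypes. The share of all genes tested called higher in MZ was 7.41% in WT and 8.18% in cKO. Mzb1, a chaperone of IgM assembly, was at 145 and 167 (WT FO), 883 and 1038 (WT MZ), 186 and 177 (cKO FO) and 1096 and 741 (cKO MZ) normalized counts. Its log2 difference, MZ minus FO, was 2.61 for WT (limma adjusted p = 0.000251) and 2.31 for cKO (limma adjusted p = 0.000357). Pdia4, a disulfide isomerase of the endoplasmic reticulum, differed by 2.54 for WT (limma adjusted p = 3.01e-05) and 2.50 for cKO (limma adjusted p = 3.15e-05). Fcmr, the Fc receptor for IgM, was called lower in MZ in cKO (log2 difference -0.93, limma adjusted p = 0.0362) and had a difference of -0.75 in WT (limma adjusted p = 0.0832). Between genotypes 0 genes of these 5 lists were called in either subset.

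Plasma cells hold far more heavy chain RNA per cell than naive B cells. The 10 plasma cell markers summed to 23665 to 38137 normalized counts in FO and 27518 to 48939 in MZ B cells, most of it from Irf4 and Tnfrsf13b, which B cells also express. Tnfrsf17, a defining marker, was at most 8.15 in every library and 0 in WT MZ replicate 1. Of the 9 markers tested, 2 were called higher and 2 lower in MZ in both genotypes. Over all genes tested, 7.41% were called higher and 4.62% lower in MZ in WT, and 8.18% and 5.54% in cKO. Prdm1 (log2 difference 1.90 for WT, 1.68 for cKO) and Derl3 (2.01, 2.02) were higher, while Sdc1 (-2.76, -3.22) and Fkbp11 (-1.48, -2.31) were lower. Of the 5 B-1 cell markers 1, Ahnak, was called lower in MZ in both genotypes and made up most of their FO sum (6090 to 8767 in FO and 890 to 2997 in MZ libraries), and the median log2 difference of the 5 was 0.19 for WT and 0.43 for cKO. Of the 6 germinal center markers 1, Bcl6, was called lower in both and made up most of their sum (3557 to 4146 in FO and 842 to 1376 in MZ libraries), with a median of -0.021 for WT and -0.30 for cKO. The 6 T cell markers summed to at most 75.2, with Cd3e and Cd8a at 0 in at least 1 library, and the 5 macrophage markers to 496 to 1320. Their part in the isotype values was not tested.

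The gene most like Ighd over the 8 libraries was Rasgrp3 (Pearson r of log2 values 0.995), followed by Smpdl3a and Kcnj1 (0.993 each). Ighm was most like Ighv2-2, a V gene of the same locus (0.977), and Ighg3 most like Lrrc45 (0.973). The others were Ighg2b with Gm49668 (0.980), Igha with Snora57 (0.971), Jchain with Atxn7l3b (0.969), Ighg2c with Rasgef1a (0.960) and Ighg1 with Gm9396 (0.953). The 8 points share subset, genotype and library, and the genes were picked as the highest of all tested.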

How the data were processed

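The authors depleted ribosomal RNA, sequenced 50-base single reads, aligned them with HISAT2 to mm10, counted reads on genes and deposited the signal as normalized counts (reads divided by DESeq2 size factors). The strand setting and tool versions are not given in the sources used here. Every value (100%) was a whole number of reads to within 0.1 read. Library depth and its precision are given with the results, and intervals on reads cover counting error only. Annotation was GENCODE M21, matched by identifier for 27872 of 27928 genes.

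Log2(normalized count + 1) entered limma 3.58.1 (R 4.3.3, lmFit, eBayes with trend) for all 8 libraries and the 14761 genes averaging 10 or more. A call required 1.5-fold and a Benjamini-Hochberg adjusted p no higher than 0.05. The pseudocount shrinks the differences of low genes. The Ighm to Ighd ratio was tested by exact permutation. Named genes were the 9 members, the genes of the lists given and the genes most correlated with each member. The members and lists were chosen with earlier results of these data known. Alternatives were a pseudocount of 0.5, no filter, TMM scaling, DESeq2 1.42.0 and edgeR 4.0.16 on recovered reads, a fit of 4 libraries, a replicate block, no or a 2-fold cutoff, and each library left out. Leaving out both WT replicate 1 libraries, and a block with cKO MZ numbers exchanged, were added after the data were seen. The fits were tested on simulated data. The 8 ATAC-seq samples were not analysed here. A few listed genes are not reported here.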

Additional observations from a re-analysis of the deposited data

How the results depend on the processing

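The number of members called between FO and MZ B cells of WT (2) was 1 in a fit of only the 4 WT libraries, 3 without both WT replicate 1 libraries (Ighg3 and Ighg2c gained, Ighg2b lost, with 1 library in each WT arm) and 0 to 2 with each library left out. In cKO (1) it was 2 in a fit of only the 4 cKO libraries, 2 with the replicate block, 2 without both WT replicate 1 libraries and 0 to 1 with each library left out, a lone library being assumed to vary like the other groups. The counts of 0 between genotypes and for the interaction stayed 0 under each alternative run. The deviations of same-numbered FO and MZ libraries correlated at 0.591 in WT and -0.0015 in cKO. Between genotypes the lowest correlation was -0.296 (WT MZ with cKO MZ). The main fit did not take the numbers to pair the samples. Whether the FO and MZ libraries of WT were matched was not tested. The replicate block called Igha in cKO (limma adjusted p = 0.00503) and left the ratio difference between subsets at 2.03 (exact sign-flip p = 0.125, the smallest 4 pairs allow). With the cKO MZ numbers exchanged in the block, 2 members were called in WT and 1 in cKO.

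Reversals were confined to differences that were not called, and their cause was not tested. For Ighg3 in WT, MZ minus FO was -0.054 by DESeq2 and -0.063 by edgeR. Without both WT replicate 1 libraries, Igha in WT became 0.37, cKO minus WT in MZ became -0.26 (Ighm), -0.30 (Ighd) and 0.053 (Ighg3), cKO minus WT in FO became -0.26 (Ighd) and 0.016 (Ighg3), and the genotype difference of the Ighm to Ighd ratio became 0.16. With each library left out, MZ minus FO in WT ranged from -0.033 to 0.62 (Ighm), -1.70 to 3.64 (Ighg3), -0.70 to 2.12 (Ighg2c), -1.17 to 1.06 (Igha) and -1.34 to 2.25 (Jchain), and in cKO from -1.09 to 0.71 (Ighg1), -0.074 to 0.94 (Ighg2c) and -0.68 to 1.63 (Jchain). Likewise cKO minus WT ranged in MZ from -0.26 to 0.40 (Ighm), -0.30 to 0.91 (Ighd) and -2.97 to 0.053 (Ighg3). In FO it ranged from -0.26 to 0.69 (Ighd), -5.32 to 0.016 (Ighg3) and -0.66 to 0.29 (Ighg2b). For the ratio cKO minus WT ranged from -0.53 to 0.36. Leaving out 1 library there makes the numbers of FO and MZ libraries in a genotype unequal. The gap between subsets then enters the difference, so that range does not measure how stable a genotype difference is. The 2 libraries of a group, rather than depth, limit the precision, except for Ighe.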
